A study of Mus musculus with 12 samples.

Results

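The tripartite motif (TRIM) family of ubiquitin ligases was followed in the brains of adult Stau2GT and WT mice. Its members were chosen by name, as transcript clusters annotated to a single gene whose symbol was Trim followed by a number, or was *Mid1* or *Mid2*. A transcript cluster is the group of probes that the array reads as 1 transcript. A cluster was kept when its log2 value was above 5 on at least 3 of the 12 arrays, and the cluster with the highest mean stood for its gene. Of 66 family genes with a cluster of their own, 47 were kept, among 27966 clusters kept of 41345 in the table. The other 19, *Trim6*, *Trim12c*, *Trim15*, *Trim30a*, *Trim30b*, *Trim30c*, *Trim30d*, *Trim30e-ps1*, *Trim31*, *Trim34a*, *Trim38*, *Trim40*, *Trim42*, *Trim43a*, *Trim52*, *Trim55*, *Trim58*, *Trim69* and *Trim75*, were under that limit and were not tested.

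The trained Stau2GT mice and the trained WT mice (3 each) had passed through 4 weeks of behavioral testing, in an open arena, with displaced or new objects and in the Barnes maze, while the naive Stau2GT mice and the naive WT mice (3 each) had not. All 12 animals were males, of 16 to 20 weeks by the labels, while the study's text puts the brains at a slightly greater age. The Stau2GT mice carried the gene trap B6.129P2-Stau2Gt(RRG396)Byg, a single trap line in which *Stau2*, the gene of an RNA-binding protein, is lowered throughout the brain rather than in a chosen cell type, and the WT mice were C57Bl/6J, the background given for all groups. RNA came from brain as a whole, so that fewer cells of a type and less RNA per cell cannot be told apart.

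*Stau2* itself (cluster 17221465) had values of 8.02, 7.95 and 8.07 in trained Stau2GT mice, against 8.27, 8.16 and 8.30 in trained WT mice. Naive Stau2GT mice had 8.08, 8.06 and 8.07, against 8.22, 8.32 and 8.21 in naive WT mice. The genotypes did not overlap in either training state, yet the difference of their mean over both states, -0.21 on the log2 scale, did not pass (adjusted p = 0.292, limma), and no source used here places the probes relative to the trap. All 8 neuron markers were above the limit, whereas the 4 lymphocyte markers with a cluster were all under it. Arrays of 1 group correlated at 0.978 to 0.988, and the trained Stau2GT arrays had the lowest correlations, 0.9784 to 0.9795. Weights that limma estimated for each array were also lowest for them, at 0.596, 0.699 and 0.635. The arrays of the other groups had weights of 0.987 to 1.39. All trained arrays came from another array run than all naive arrays, according to the array names, so training and array run cannot be told apart. The labels name no litters, so p-values measure only the spread between these samples.

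Most TRIM proteins have a RING domain, which passes ubiquitin to a substrate, followed by B-boxes and a coiled coil. They are sorted into structural classes by the domain at their C-terminal end. In the nervous system several of them act on the cytoskeleton or at synapses: Mid1 and Mid2 sit on microtubules, Trim46 bundles microtubules at the axon initial segment, Trim9 and Trim67 bind the netrin receptor DCC, and Trim2 and Trim3 are neuronal ligases. Many of the members with a PRY-SPRY domain serve antiviral defence and are raised by interferon in other tissues. Of the 47 members, 19 belonged to the PRY-SPRY class IV, 6 to class I (COS box), 4 to class VII (NHL repeats), 3 to class VI (PHD finger and bromodomain) and 2 each to classes II, V and XI. Classes VIII, IX and X had 1 member each, 5 members had no class and *Trim80* was not in the class list.

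Array values of the members averaged between 4.83 (*Trim43b*) and 10.74 (*Trim37*) over the 12 arrays. Probes of different genes differ in affinity, so these values do not order the genes by transcript number. The 6 members with the highest values were *Trim37*, a ligase of peroxisomes and centrioles, *Trim9*, *Trim44*, *Trim3*, *Trim8* and *Trim28*, the corepressor of KRAB zinc finger proteins. The 6 with the lowest were *Trim56*, *Trim80*, *Trim50*, *Trim7*, *Trim29* and *Trim43b*, and *Trim43b* was above 5 on 3 arrays alone. The spread between mice of a group was small, with a median SD of 0.11 over the members against 0.13 over all clusters tested. It ran from 0.05 for *Trim9* to 0.36 for *Trim12a*. *Trim12a*, *Trim43b* and *Trim43c* belong to clustered gene families of near-identical copies, whose signals the probes may not separate.

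*Mid1* was the member that set Stau2GT brains apart from WT brains. *Mid1* encodes midline-1, a ligase that rides on microtubules, hands the catalytic subunit of protein phosphatase 2A over to degradation and is mutated in the X-linked form of human Opitz syndrome. Its cluster (17546762) had values of 7.78, 7.41 and 7.51 in trained Stau2GT mice, against 8.71, 8.70 and 9.0 in trained WT mice. In naive Stau2GT mice the values were 8.55, 8.40 and 8.06, against 9.03, 8.96 and 9.20 in naive WT mice. Every Stau2GT brain lay below every WT brain, across both training states.

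In trained mice *Mid1* fell to 7.57 ± 0.19 in Stau2GT brains, against 8.80 ± 0.17 in WT brains (SD, n = 3 each). The log2 fold change was -1.24 (SE 0.14, 95% interval -1.55 to -0.92), or 0.424 of the WT level, and it passed (adjusted p = 0.00494, limma). In naive mice *Mid1* had a mean of 8.34 ± 0.25 in Stau2GT brains and 9.06 ± 0.12 in WT brains. There the log2 fold change was -0.73 (SE 0.14, 95% interval -1.04 to -0.41), or 0.604 of the WT level, which did not pass (adjusted p = 0.258, limma). Over both states the mean difference of -0.98 passed (adjusted p = 0.00181, limma). An exact permutation test with genotypes exchanged within each state gave a two-sided p of 0.005, the smallest that its 400 arrangements can give. Genotypes that do not overlap, on the same side in both states, always give this p, as *Trim16* and *Stau2* did too. It therefore adds nothing to the lack of overlap. Within a state, 3 mice against 3 cannot go below an exact permutation p of 0.1. The call in trained mice was lost when the fit left out the 6 naive arrays (adjusted p = 0.0594, limma).

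**Figure D1:**
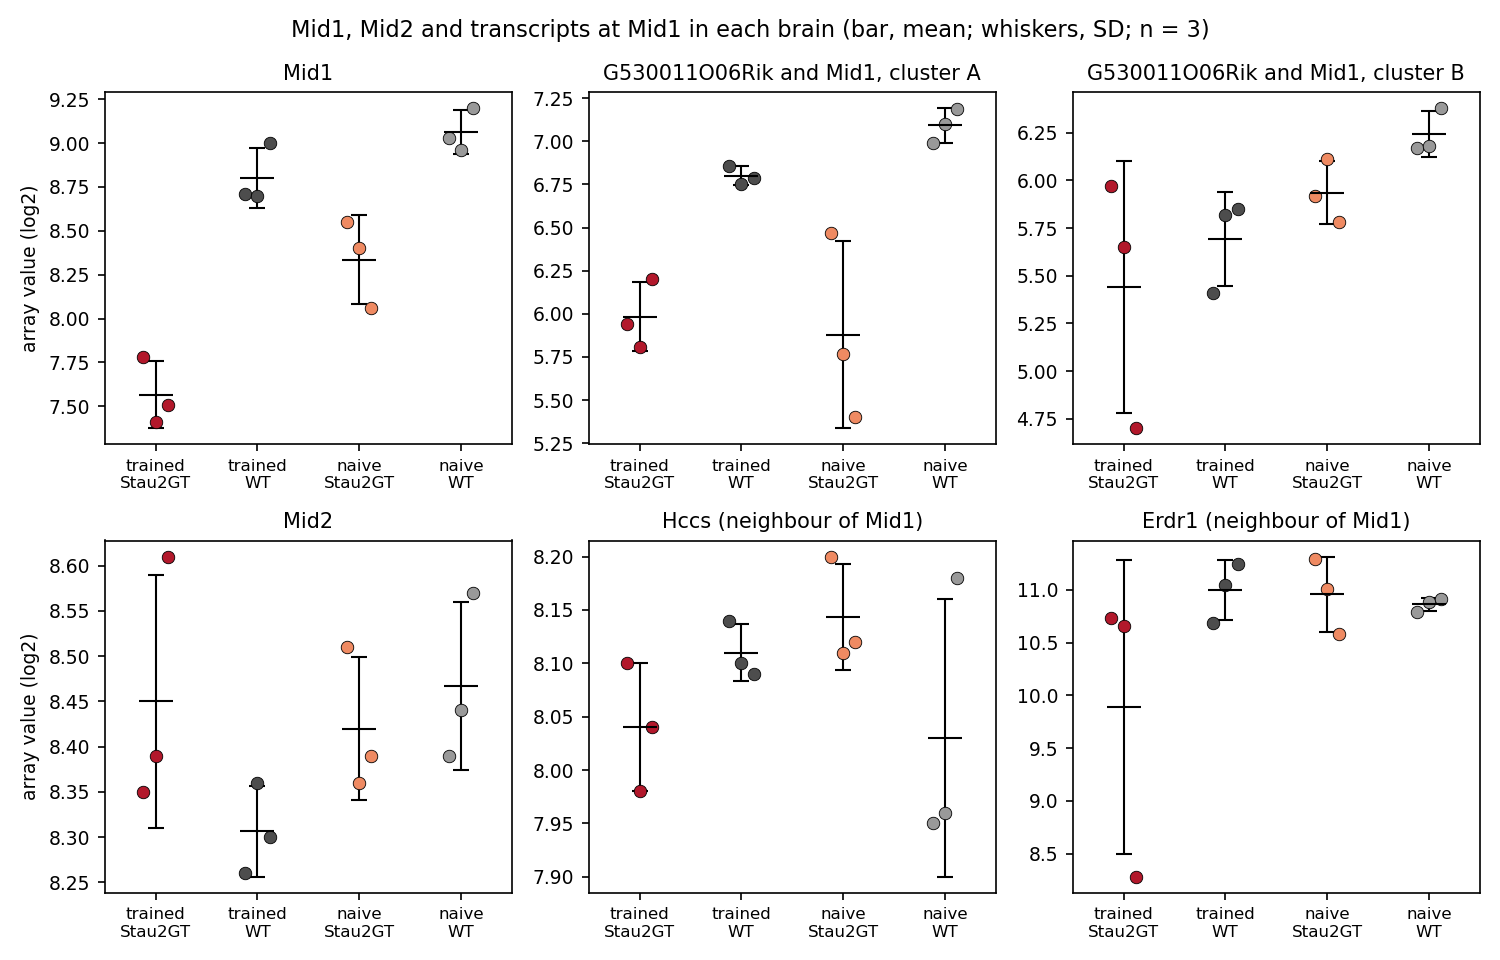
Array values (log2, vertical axis, each panel on its own scale) of *Mid1*, the 2 clusters shared by G530011O06Rik and *Mid1* (A, 17539700, and B, 17546212), *Mid2* and 2 neighbours of *Mid1*, in each brain of the 4 groups, where a point is 1 mouse, the bar the mean and the whiskers the SD. In *Mid1* and in cluster A all Stau2GT points lie below all WT points, and *Erdr1* has 1 low trained Stau2GT mouse at 8.28.

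Further clusters at the *Mid1* locus were read apart from it. G530011O06Rik, a long non-coding RNA, lies within the span of *Mid1* in RefSeq, and 2 clusters tested carry both names. Cluster 17539700 had 5.94, 5.81 and 6.20 in trained Stau2GT mice against 6.86, 6.75 and 6.79 in trained WT mice. In naive Stau2GT mice it had 6.47, 5.77 and 5.40 against 6.99, 7.10 and 7.19 in naive WT mice. Here too the genotypes did not overlap in either state, and the mean difference of -1.01 passed (adjusted p = 0.0343, limma). Neither state passed alone, with -0.82 in trained mice (adjusted p = 0.309, limma) and -1.21 in naive mice (adjusted p = 0.139, limma). The larger difference was thus in naive mice, whereas that of the *Mid1* cluster 17546762 was in trained mice. Cluster 17546212 differed by -0.25 in trained and -0.31 in naive mice and did not pass (adjusted p = 0.834 and 0.998, limma). Its genotypes did not overlap in naive mice, at 5.92, 6.11 and 5.78 in Stau2GT against 6.17, 6.18 and 6.38 in WT brains. They overlapped in trained mice, at 5.97, 5.65 and 4.70 in Stau2GT against 5.41, 5.82 and 5.85 in WT brains. Another cluster with the *Mid1* name alone averaged 3.60 and was under the limit.

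The genes beside *Mid1* gave smaller or uneven differences. In RefSeq order, *Frmpd4*, *Msl3*, *Arhgap6*, *Amelx* and *Hccs* come before *Mid1* on the X chromosome, and *Erdr1* and *Asmt* after it. *Mid1* of C57BL/6 mice spans the border of the pseudoautosomal region, beyond which genes are shared between X and Y. *Hccs*, of the heme lyase next to *Mid1*, differed by -0.07 in trained and 0.11 in naive mice, and *Frmpd4*, *Arhgap6* and *Asmt* by at most 0.17 in either direction. *Msl3* differed by -0.26 in trained and 0.12 in naive mice. *Erdr1* had 10.73, 10.66 and 8.28 in trained Stau2GT mice against 10.69, 11.05 and 11.25 in trained WT mice, a difference of -1.11 that did not pass (adjusted p = 0.577, limma). That mouse 3 was the low one, and the other 11 arrays had 10.58 to 11.29. In naive mice *Erdr1* differed by 0.10. *Amelx* was not tested.

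Sets of cell type markers were read beside *Mid1*. The 7 cerebellar markers tested, of Purkinje and granule cells, averaged 9.17 to 9.31 in trained Stau2GT mice against 9.0 to 9.16 in trained WT mice, and all 7 were higher. In naive mice they averaged 8.93 to 9.34 in Stau2GT against 8.96 to 9.31 in WT brains. The 3 choroid plexus markers tested averaged 8.57 to 8.88 in trained Stau2GT mice against 8.31 to 8.82 in trained WT mice, and 8.88 to 9.06 in naive Stau2GT mice against 8.47 to 8.89 in naive WT mice, and all 3 were higher in both states. The neuron markers overlapped in trained mice, at 10.27 to 10.40 in Stau2GT and 10.32 to 10.34 in WT brains. In naive mice they averaged 10.31 to 10.32 in Stau2GT against 10.32 to 10.39 in WT brains, where 7 of 8 were lower and the brains, compared without rounding, did not overlap. No marker passed in either genotype comparison, and their part in the *Mid1* difference was not tested.

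RefSeq gives *Mid1* 3 promoters (GRCm38.p6, plus strand of the X chromosome), and the outermost ones are shown with the promoter of its paralog *Mid2* because *Mid1* alone of this pair passed. Each run covers 250 bases before to 50 bases after the start, at chrX:169684949-169685248, chrX:169879369-169879668 and chrX:140664706-140665005. Capitals mark the motifs found: a CCAAT box, here on the opposite strand, and a GC box.
*Mid1*, start 1: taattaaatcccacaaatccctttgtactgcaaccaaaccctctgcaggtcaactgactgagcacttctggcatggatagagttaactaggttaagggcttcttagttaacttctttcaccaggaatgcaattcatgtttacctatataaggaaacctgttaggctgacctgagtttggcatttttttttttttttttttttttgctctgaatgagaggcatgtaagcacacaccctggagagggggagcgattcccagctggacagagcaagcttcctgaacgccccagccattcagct
*Mid1*, start 3: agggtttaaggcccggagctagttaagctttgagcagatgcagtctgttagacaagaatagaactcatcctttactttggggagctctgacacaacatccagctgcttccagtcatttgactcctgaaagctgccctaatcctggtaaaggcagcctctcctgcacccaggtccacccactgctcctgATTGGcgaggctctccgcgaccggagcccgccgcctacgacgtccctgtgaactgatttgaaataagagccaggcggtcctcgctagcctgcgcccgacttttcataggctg
*Mid2*, start 1: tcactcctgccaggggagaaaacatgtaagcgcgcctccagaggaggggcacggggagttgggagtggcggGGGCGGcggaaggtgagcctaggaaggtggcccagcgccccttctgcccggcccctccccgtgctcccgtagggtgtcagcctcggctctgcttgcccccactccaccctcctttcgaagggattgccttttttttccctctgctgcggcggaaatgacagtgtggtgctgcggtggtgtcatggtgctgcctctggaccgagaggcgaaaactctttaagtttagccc
The first *Mid1* promoter had a GC content of 43.7% with 2 CpG, the third 55.0% with 13 and that of *Mid2* 63.3% with 17. No source used here says which start the array's probes follow.

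*Mid2*, the X-linked paralog (cluster 17538171), had 8.35, 8.39 and 8.61 in trained Stau2GT mice against 8.26, 8.36 and 8.30 in trained WT mice. In naive Stau2GT mice it had 8.51, 8.36 and 8.39 against 8.39, 8.44 and 8.57 in naive WT mice. The genotypes overlapped in both states. The log2 fold change was 0.14 in trained mice (95% interval -0.04 to 0.33) and -0.05 in naive mice (-0.23 to 0.14), and neither passed (adjusted p = 0.676 and 0.998, limma). The other 4 class I members went from -0.14 (*Trim36*) to -0.01 in trained mice, with *Trim9* at -0.12, and none of them passed.

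The partners of midline-1 were counted next. Of 13 listed genes of the phosphatase 2A complex, its regulators and the mTOR pathway, 12 were tested and none passed in either genotype comparison. In trained mice 3 were higher and 9 lower, with a median of -0.07 against 0.00 over all clusters, and in naive mice 7 were higher and 5 lower, with a median of 0.02. *Igbp1*, of the alpha4 subunit that links midline-1 to the phosphatase, differed by -0.16 in trained mice (adjusted p = 0.584, limma) and by 0.09 in naive mice (adjusted p = 0.998).

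Across the family in trained mice, 1 of the 47 members passed (2.13%), against 0.179% of all clusters tested, and that member was *Mid1*. At an unadjusted p under 0.05 there were 6 (12.8%), against 8.92% of all clusters, with *Trim16*, *Trim29* and *Trim68* higher and *Mid1*, *Trim13* and *Trim45* lower. *Trim29* met the limit of 5 through the trained Stau2GT mice, at 5.36, 5.02 and 5.14, with 2 of the other 9 arrays above it, so its place among the higher members is no support for a difference. Without overlap of the arrays there were also 6 (12.8%), against 11.2% of all clusters, namely *Trim11*, *Trim16* and *Trim68* above and *Mid1*, *Trim2* and *Trim13* below WT. Both shares were close to that of all clusters. The median of the members was -0.01, with 23 above and 24 below 0, beside 0.00 over all clusters. The highest log2 fold changes were 0.29 for *Trim43c*, 0.26 for *Trim29*, 0.24 for *Trim68*, 0.19 for *Trim16*, 0.18 for *Trim50* and 0.17 for *Trim54*. After *Mid1* the lowest were -0.37 for *Trim13*, a ligase of the endoplasmic reticulum, -0.29 for *Trim21*, the cytosolic antibody receptor, -0.22 for *Trim45*, -0.14 for *Trim36* and -0.12 for *Trim9*.

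In naive mice none of the 47 members passed by limma, against 0.0858% of all clusters, and 7 had an unadjusted p under 0.05 (14.9%), against 5.00% of all clusters. These were *Trim16*, *Trim43b* and *Trim59*, higher, and *Mid1*, *Trim11*, *Trim63* and *Trim72*, lower. *Trim43b* averaged 4.99 in naive Stau2GT and 4.60 in naive WT mice, both under the limit of 5. In 12 members (25.5%) the genotypes did not overlap, against 12.0% of all clusters, with 5 above and 7 below WT. The median was 0.01, with 26 above and 18 below 0. The highest were 0.42 for *Trim59*, 0.39 for *Trim43b*, 0.21 for *Trim16*, 0.17 for *Trim24*, a coregulator of nuclear receptors, 0.14 for *Trim62* and 0.13 for *Trim71*. The lowest after *Mid1* were -0.29 for *Trim63*, -0.26 for *Trim72*, -0.25 for *Trim14*, -0.23 for *Trim50* and -0.14 for *Trim11*.

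**Figure D2:**
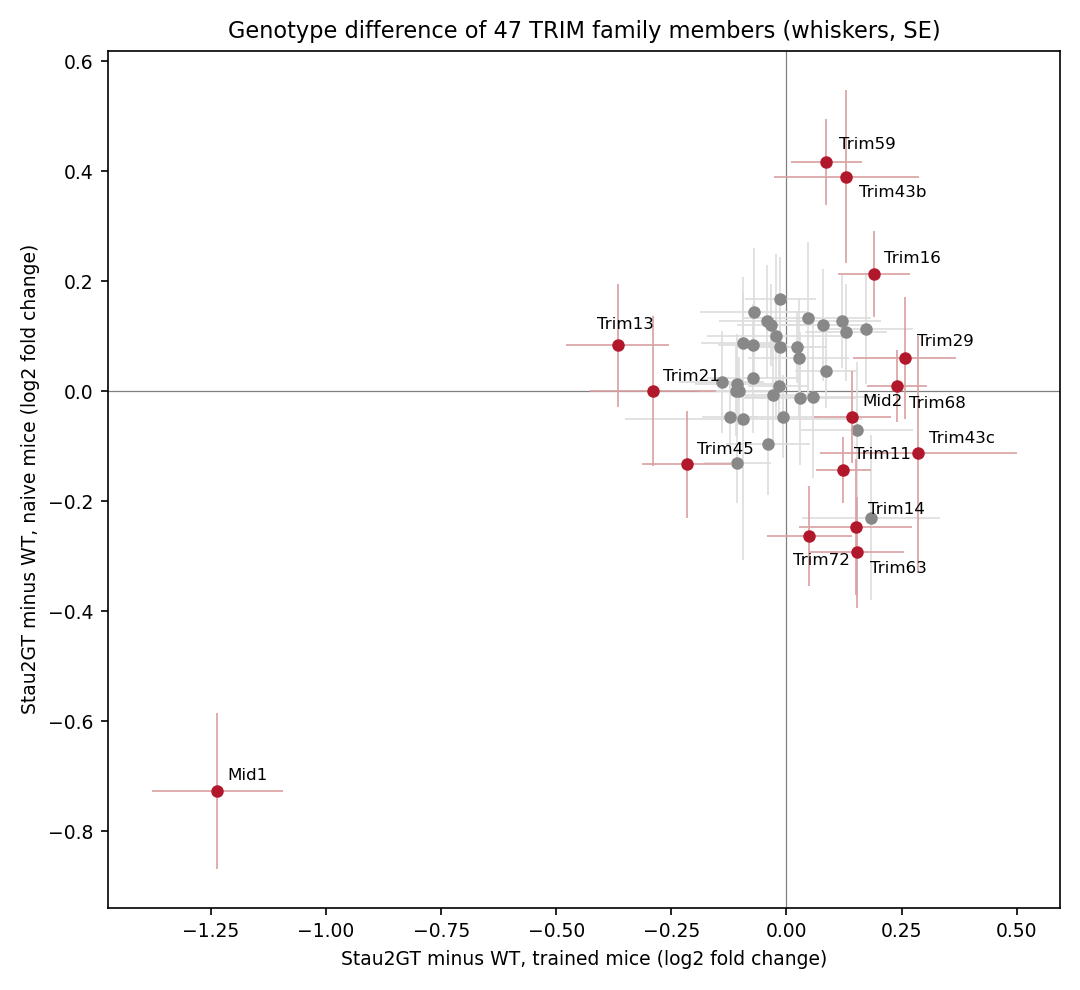
Log2 fold change of Stau2GT over WT in trained mice (horizontal) and in naive mice (vertical) for each of the 47 members, with whiskers of 1 SE, the members in red being those with a name beside them. *Mid1* stands alone at -1.24 and -0.73, while the other 46 lie between -0.37 and 0.29 in trained mice and between -0.29 and 0.42 in naive mice.

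Taking both states as a mean, *Mid1* alone passed, 1 of 47 (2.13%), against 0.118% of all clusters. At an unadjusted p under 0.05 there were 7 (14.9%), against 6.23% of all clusters, with *Trim16*, *Trim43b*, *Trim59* and *Trim68* higher and *Mid1*, *Trim26* and *Trim45* lower. The mean log2 fold changes of *Trim43b* (0.26), *Trim59* (0.25), *Trim16* (0.20), *Trim29* (0.16), *Trim54* (0.14) and *Trim68* (0.12) were the highest. Those of *Trim45* (-0.17), *Trim21* (-0.14), *Trim13* (-0.14), *Trim26* (-0.12) and *Trim72* (-0.11) were the lowest after *Mid1*. *Trim43b*, the highest, averaged 4.83 over all arrays, under the limit of 5.

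In 2 members, *Mid1* and *Trim16*, the Stau2GT brains lay on the same side of the WT brains in both states (4.26%), against 0.615% of all clusters. *Trim16* encodes a family member without a RING domain that is known for the response to damaged lysosomes. Its cluster (17250775) had 6.04, 5.90 and 6.04 in trained Stau2GT mice against 5.87, 5.73 and 5.81 in trained WT mice. In naive Stau2GT mice it had 5.89, 5.99 and 6.01 against 5.73, 5.88 and 5.64 in naive WT mice. The gap between the genotypes was narrow, 5.89 against 5.88 at its closest in naive mice. The log2 fold changes of 0.19 and 0.21 (SE 0.08 each) and their mean of 0.20 did not pass (adjusted p = 0.509, 0.954 and 0.580, limma). A second cluster, shared with *Fbxw10*, differed by -0.04 and -0.06.

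*Trim59*, of a membrane-anchored ligase, differed in naive mice. It had 8.04, 7.97 and 8.03 in naive Stau2GT mice against 7.54, 7.77 and 7.48 in naive WT mice, and 7.95, 7.86 and 7.93 in trained Stau2GT mice against 7.83, 7.87 and 7.78 in trained WT mice. The naive WT brains were the low ones, and the trained genotypes overlapped. The log2 fold change of 0.42 in naive mice (SE 0.08, 95% interval 0.25 to 0.59) did not pass (adjusted p = 0.188, limma). It passed only without naive WT mouse 2 (0.50, adjusted p = 0.0264, limma), the naive WT brain nearest to the Stau2GT brains, and in no other fit tried. The averages of several sets of glial markers also lay higher in naive Stau2GT mice without overlap. The 5 oligodendrocyte markers tested averaged 9.01 to 9.09 in naive Stau2GT mice against 8.82 to 8.88 in naive WT mice. The 6 astrocyte markers averaged 9.16 to 9.18 in naive Stau2GT against 9.08 to 9.15 in naive WT mice, and the 7 microglia markers 7.42 to 7.43 against 7.37 to 7.40. Read singly in naive mice, 5 of 5 oligodendrocyte, 4 of 6 astrocyte and 6 of 7 microglia markers were higher and the rest lower. The medians were 0.17, 0.03 and 0.02. In trained mice 1 of 5, 3 of 6 and 2 of 7 were higher and the rest lower. No marker passed, and their part in the *Trim59* values was not tested.

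**Figure D3:**
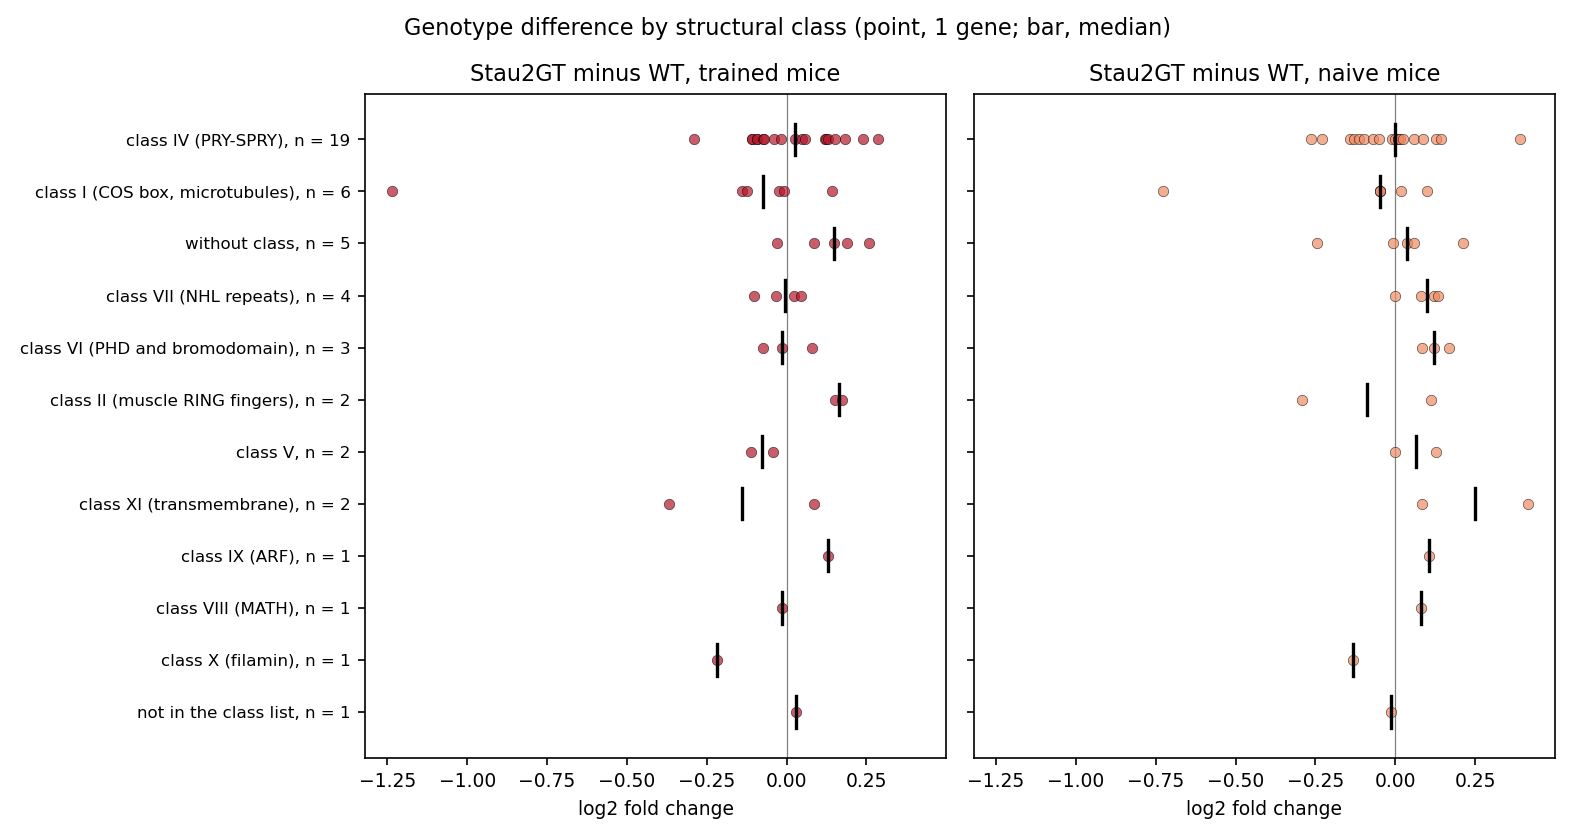
Log2 fold change of Stau2GT over WT (horizontal axis) for the members of each structural class, in trained mice (left) and naive mice (right), where a point is 1 gene and the bar the class median. The far point of class I is *Mid1*, at -1.24 and -0.73.

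By class, the 19 PRY-SPRY members had medians of 0.03 in trained and 0.00 in naive mice, with 10 and 9 above 0. The 6 of class I had medians of -0.07 and -0.05, with 1 and 2 above 0. The 4 NHL members, *Trim2*, *Trim3*, *Trim32* and *Trim71*, had medians of -0.01 in trained and 0.10 in naive mice, and the 3 of class VI, all chromatin regulators, -0.01 and 0.12. *Mid1* apart, no member of any class passed in either genotype comparison.

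Members with more than 1 cluster did not always run together. *Trim54*, of a muscle ligase, differed by 0.17 in trained and 0.11 in naive mice by its main cluster, and by 0.38 and -0.01 by another. *Trim27* differed by -0.09 and 0.09, and by 0.13 and -0.03 by its other cluster. None of these passed.

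Some members differed between genotypes in opposite directions. *Trim11*, of a PRY-SPRY ligase, was singled out after its values were seen. It had 7.09, 7.10 and 7.14 in trained Stau2GT mice against 6.97, 7.02 and 6.97 in trained WT mice, and 6.97, 6.96 and 6.86 in naive Stau2GT mice against 7.09, 7.0 and 7.13 in naive WT mice. Stau2GT brains were the higher ones in trained and the lower ones in naive mice, without overlap. The interaction, the trained minus the naive genotype difference, was 0.27 (SE 0.08) and did not pass (adjusted p = 0.543, limma). Over the family no interaction passed by limma, against 0.0215% of all clusters, and 8 had an unadjusted p under 0.05 (17.0%), against 7.70% of all clusters. *Trim63* (0.45), *Trim50* (0.41) and *Trim43c* (0.40) were the highest and *Mid1* (-0.51), *Trim13* (-0.45) and *Trim59* (-0.33) the lowest. For *Mid1* the larger difference in trained mice was therefore not shown to differ from that in naive mice (95% interval -0.95 to -0.07, adjusted p = 0.629, limma).

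**Figure D4:**
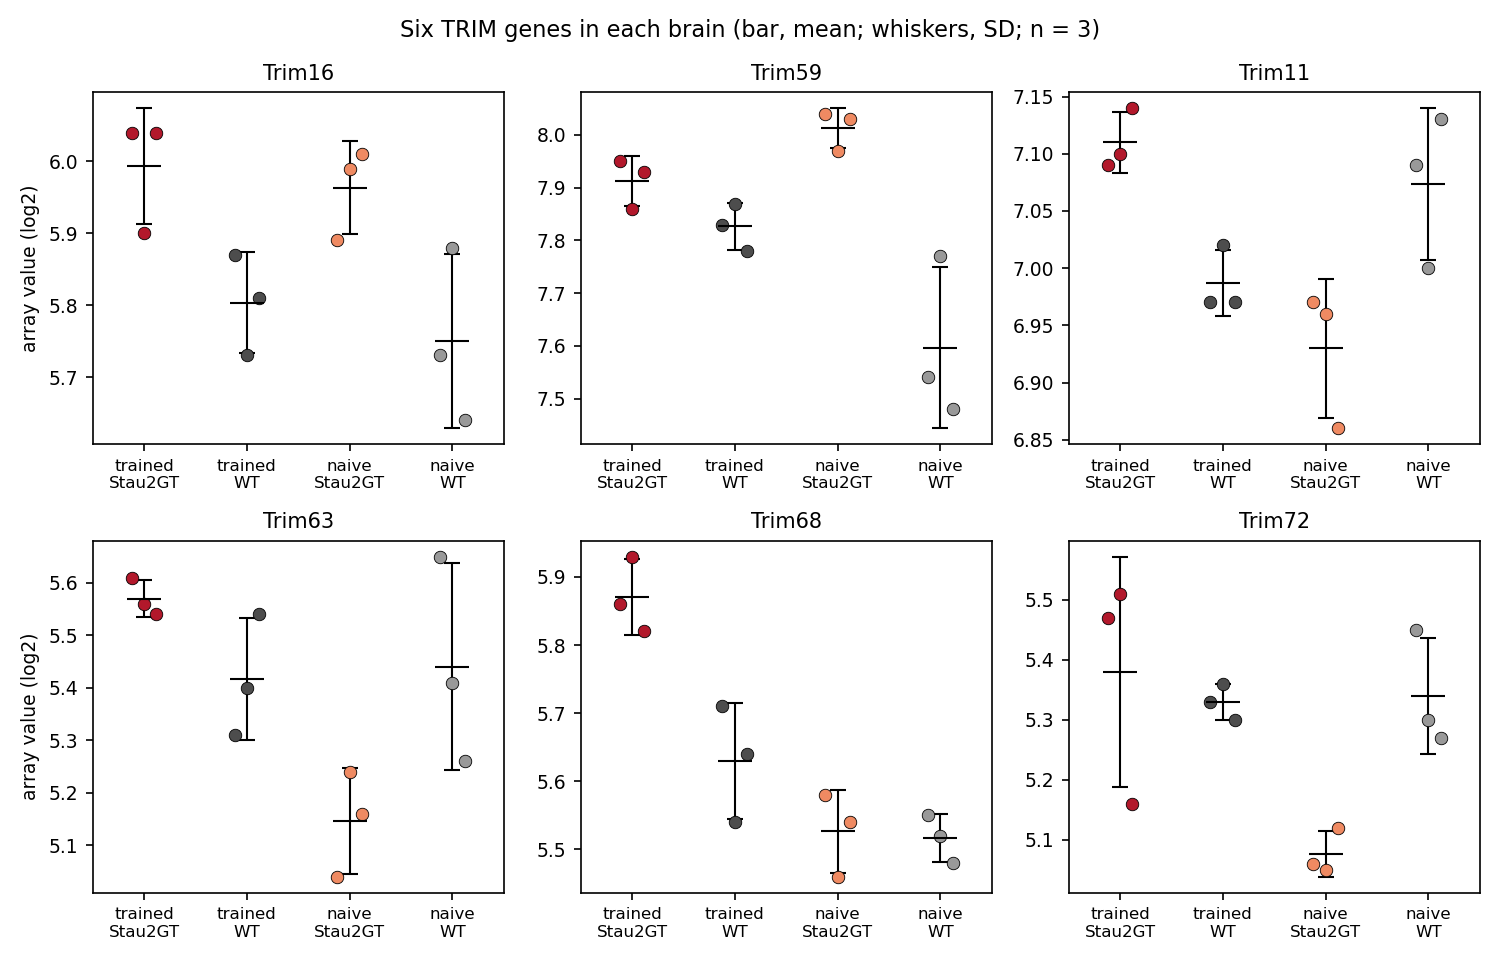
Array values (log2, vertical axis, each panel on its own scale) of *Trim16*, *Trim59*, *Trim11*, *Trim63*, *Trim68* and *Trim72* in each brain of the 4 groups, where a point is 1 mouse, the bar the mean and the whiskers the SD. *Trim16* is higher in Stau2GT than in WT mice in both states, while *Trim11* is higher in Stau2GT than in WT mice when trained and lower when naive.

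Trained and naive mice were compared within each genotype, where training and array run cannot be told apart. In Stau2GT mice 3 of the 47 members passed (6.38%), against 6.11% of all clusters, and 8 had an unadjusted p under 0.05 (17.0%), against 26.2% of all clusters. The share that passed was near that of all clusters. *Trim68* rose to 5.86, 5.93 and 5.82 in trained Stau2GT mice, against 5.58, 5.46 and 5.54 in naive Stau2GT mice, a log2 fold change of 0.34 (SE 0.07, adjusted p = 0.0195, limma). *Trim63*, of the muscle ligase MuRF1, rose to 5.61, 5.56 and 5.54 in trained Stau2GT mice, against 5.04, 5.24 and 5.16 in naive Stau2GT mice, by 0.42 (SE 0.10, adjusted p = 0.0375). *Mid1* fell by 0.77 (SE 0.14, adjusted p = 0.0175, limma). None of the 3 overlapped between the states. Larger but more scattered values, of 0.62 for *Trim43c* and 0.52 for *Trim50*, did not pass, and the lowest after *Mid1* were -0.38 for *Trim12a* and -0.25 for *Trim21*. Of the clusters shared by G530011O06Rik and *Mid1*, 17539700 showed no such fall, at 0.10 (adjusted p = 0.793, limma). Cluster 17546212 differed by -0.50 and did not pass (adjusted p = 0.253, limma).

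The *Trim63* call was lost without a filter, with quantile normalization, median centring, array weights or a replicate block, with only 6 arrays and by the methods' t-test (adjusted p 0.0546 to 0.128). The calls also leaned on single arrays. Without trained Stau2GT mouse 2 no member passed by limma. Without naive Stau2GT mouse 1, 2 or 3 a single member did in each case, *Trim68* without mouse 1, *Trim50* without mouse 2 (0.71, adjusted p = 0.0264) and *Mid1* without mouse 3. Without trained Stau2GT mouse 3 the count was 4, without *Trim63* among them (adjusted p = 0.051). When each array was centred on its median, 22.5% of all clusters called were higher, against 51.2% without centring. *Trim63* had values near the limit of 5 and is known from muscle, as is *Trim72*, the membrane repair protein MG53, at 0.30 (adjusted p = 0.0720, limma). Of 6 skeletal muscle markers, *Myh1*, *Myh4* and *Mylpf* were under the limit, and the other 3 averaged 6.04 to 6.33 in trained Stau2GT mice against 5.83 to 5.91 in naive Stau2GT mice. In WT mice all 3 were higher when trained as well, with a median of 0.13, at 6.06 to 6.08 against 5.84 to 6.06. Among them *Ckm*, of muscle creatine kinase, rose by 0.39 in Stau2GT mice (adjusted p = 0.0375, limma). Their part in the *Trim63* change was not tested.

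In WT mice none of the 47 members passed by limma, against 1.40% of all clusters, and 2 had an unadjusted p under 0.05 (4.26%), against 16.0% of all clusters. Both were higher in trained mice, *Trim59* by 0.23 and *Trim24* by 0.22. *Trim43c* and *Trim13* were at 0.22 as well, and the lowest were *Trim12a* (-0.33), *Mid1* (-0.26) and *Trim23* (-0.19). *Trim68* had 5.71, 5.54 and 5.64 in trained WT mice against 5.55, 5.52 and 5.48 in naive WT mice (0.11), and *Trim63* 5.31, 5.40 and 5.54 against 5.65, 5.41 and 5.26 (-0.02). Whether these differ from the Stau2GT values is the interaction above, which passed for neither (adjusted p = 0.630 for *Trim68* and 0.544 for *Trim63*, limma). *Mid2* differed by 0.03 in Stau2GT and -0.16 in WT mice.

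**Figure D5:**
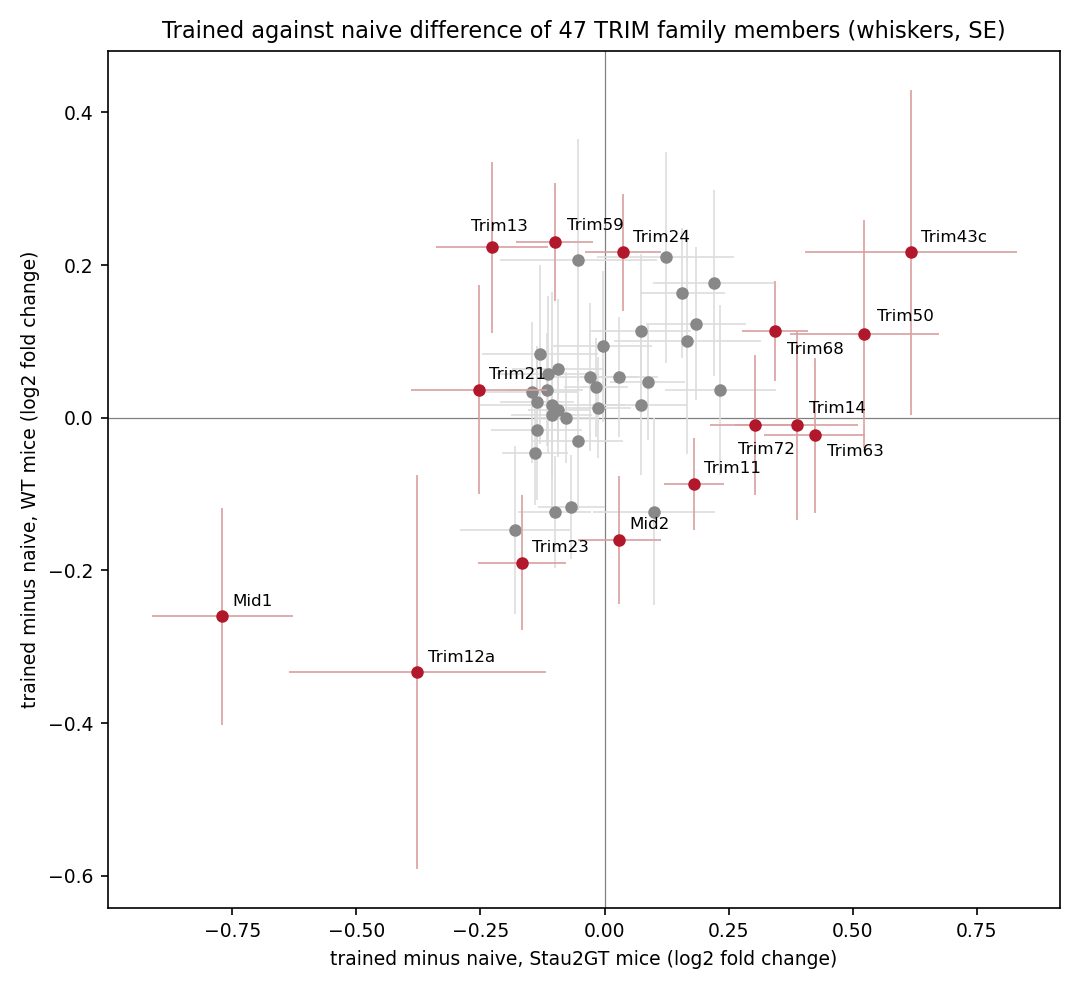
Log2 fold change of trained over naive mice in Stau2GT (horizontal) and in WT (vertical) for each of the 47 members, with whiskers of 1 SE, the members in red being those with a name beside them. *Mid1* is at -0.77 and -0.26, *Trim63* at 0.42 and -0.02 and *Trim68* at 0.34 and 0.11.

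The genes that TRIM ligases work with were counted in the same fits. Of 17 ubiquitin-activating and conjugating enzymes tested, none passed between the genotypes, with medians of 0.04 in trained and 0.02 in naive mice. *Ube2k*, a brain-rich conjugating enzyme, differed by 0.15 in naive mice (adjusted p = 0.954, limma). Of 13 genes of netrin guidance and exocytosis around *Trim9* and *Trim67*, none passed, with medians of 0.00 and -0.01. *Enah*, of the actin regulator Mena, differed by -0.13 in trained and -0.12 in naive mice. Of 7 related proteins with other symbols, such as Pml, none passed, and their medians were 0.02 and -0.02.

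Of 32 interferon-stimulated genes tested, none passed, with medians of 0.04 in trained mice (20 higher, 12 lower) and 0.05 in naive mice (21 higher, 11 lower). *Isg15*, *Mx1*, *Mx2* and *Ifit3b* were under the limit. Of 11 genes of cytosolic nucleic acid sensing, which *Trim25* and *Trim56* act on, none passed, with medians of 0.09 and 0.02, and *Zc3hav1*, of an antiviral zinc finger protein, differed by 0.34 in naive mice (adjusted p = 0.762, limma). Between trained and naive Stau2GT mice *Oasl1* (0.33) and *Nod2* (0.37) rose and *Sp100* (-0.27) and the conjugating enzyme gene *Ube2l3* (-0.30) fell (adjusted p = 0.0456, 0.0351, 0.0442 and 0.0268, limma). These were 2 of 32 interferon-stimulated genes, 1 of 11 sensing genes and 1 of 17 ubiquitin enzymes, near the 6.11% of all clusters that passed there. No gene of these lists passed between trained and naive WT mice. Here too training and array run cannot be told apart.

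Promoter letters were read for the 34 of 47 members with an entry in the RefSeq promoter table used here, 47 promoters of 300 bases. Their median GC content was 57.0% with 15 CpG, against 52.7% and 7 over 32851 promoters of all genes. Those genes were not limited by array value, whereas the members were. Whether a difference from all genes belongs to the family or to genes with higher brain signal was not tested. On either strand, the GC box (GGGCGG) was in 53.2% of member promoters against 35.7% of all, and the CCAAT box (CCAAT) in 40.4% against 37.4%. The core of the interferon response element (GAAA, any 2 bases, GAAA) was in 8.5% against 3.4%, which came to 4 members, *Trim2*, *Trim12a*, *Trim21* and *Trim26*. TATAAA was in 10.6% against 13.6%, the E box CACGTG in 6.4% against 7.2% and the CRE (TGACGTCA) in 2.1% against 1.8%. No motif overlapped the marked ones in the *Mid1* and *Mid2* promoters, where *Mid1* starts 1 and 2 held none of the 6.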

How the data were processed

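RNA of 12 brains was hybridised by the authors on Affymetrix Mouse Gene 2.0 ST arrays. The deposited log2 values were made by the authors by RMA (R package oligo, version not given in the sources used here), 1 value per cluster and array, to 2 decimals. RMA sets all arrays to 1 distribution of probe signals, so values are relative. Gene names came from the platform's annotation, gene order and promoters from RefSeq (GRCm38.p6). Members and gene lists were chosen with earlier results of these data known. As the study's methods have it, clusters above log2 5 on at least 3 arrays were fitted by limma (version 3.58.1, R 4.3.3), here as 4 group means over 12 arrays, with Benjamini-Hochberg adjustment over 27966 clusters, and a difference passed at an adjusted p under 0.05. Of these, 857 shared all values with another cluster, and none was a member. *Mid1*, *Mid2* and each member that passed are given by array, as are members that the text singles out, and the 6 highest and 6 lowest log2 fold changes (3 for interaction and training) are named, with every member on 1 side in both states. Alternatives were no filter or one at 6, quantile normalization, median centring, other moderation, array weights, a replicate block, only 6 arrays, the methods' t-test, the mean over a gene's clusters, and each array left out. The t-test was Student's, which the study names in its statistics and for its figure of single genes. Its adjustment over all clusters was added here, as the study's methods pair that adjustment with limma. Depth does not apply to arrays, and 3 mice a group limit the precision. Motifs and figures were made in Python 3.11.15.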

Additional observations from a re-analysis of the deposited data

Results flagged for a closer look

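*Trim11* stood out because all Stau2GT brains lay above the WT brains in trained mice and below them in naive mice. The log2 fold change was 0.123 in trained and -0.143 in naive mice. The test of the difference itself, limma's interaction, did not pass (adjusted p = 0.543), and the other 46 members had no such turn.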

How the results depend on the processing

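*Mid1* between trained genotypes kept its value of -1.24 but did not pass with only the 6 arrays compared (adjusted p = 0.0594) or by the methods' t-test (adjusted p = 0.534), where 0 members passed in each case, and it passed by limma under the other 8 settings, from -1.27 to -0.78, and without any of the 12 arrays (adjusted p 0.00237 to 0.0342). In naive mice 0 members passed, and 0 to 1 when an array was left out. Between trained and naive Stau2GT mice 3 members passed. With the filter at log2 6 the count was 1, as *Trim63* and *Trim68* had no array above 6 and were not tested. It was 0 with only 6 arrays, 0 by the t-test and 0 to 4 when an array was left out. There *Trim63* passed in 5 of 12 such fits and under 2 of 9 other settings, *Trim68* and *Mid1* in 9 each. *Mid2*, near 0, changed sign: from -0.0917 to 0.005 in naive mice and from -0.05 to 0.08 in Stau2GT mice when an array was left out, and to -0.0433 there after median centring. Same-numbered mice did not deviate together (18 correlations, -0.101 to 0.0686), and a replicate block left 1 member in trained mice, 0 in naive mice and 2 between trained and naive Stau2GT mice, without *Trim63* (adjusted p = 0.0631). Counts over all clusters moved more: 50 between trained genotypes became 29 without a filter, 26 with array weights, 16 with 6 arrays, 1 by the t-test and 22 to 47 without an array. Those between naive genotypes, 24, became 0 by the t-test. The interaction's 6 became 10 without trained Stau2GT mouse 2. For WT training, 391 became 661 with other moderation, 730 with weights, 125 with 6 arrays, 9 by the t-test and 106 to 471 without an array, and for Stau2GT 1708 became 961, 261, 0 and 430 to 2150 with weights, 6 arrays, the t-test and without an array. Of 541 member values under other settings 527 kept direction and call, and of 726 without an array 708 did. Most of these values had not passed in the main fit, so keeping the call meant staying without one. The calls lost, 13 in each set, all fell on the few values that had passed, so these shares do not measure how firm those calls are. Causes were not tested.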
